A study of Mus musculus with 6 samples.

Results

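Ferritins and iron handling are described here through 9 mouse genes: the ferritin chains Fth1 and Ftl1, the importers Tfrc and Slc11a2, the exporter Slc40a1, the iron regulatory proteins Aco1 and Ireb2, the ferritin receptor Ncoa4 and the haem-degrading enzyme Hmox1. They were taken by symbol from a table of 53819 symbols, and they were selected on the read counts of the budesonide comparison, which were known when the list was drawn up. All 9 passed the filter on low counts, as did 17155 symbols in all. The libraries came from 3D aggregates (gastruloids) of E14, a mouse embryonic stem cell line: 3 libraries were from aggregates given budesonide, a synthetic glucocorticoid, for 80 h, and 3 were from untreated aggregates. The labels name no vehicle for the untreated aggregates, give no collection time for them, list the same cell line for all 6 samples and do not say whether the replicates were separate cultures. The p-values below therefore stand against the scatter of these 6 libraries alone, and that scatter may be technical.

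Cells take up iron bound to transferrin through the transferrin receptor (Tfrc), and the divalent metal transporter Slc11a2 carries it out of the endosome into the cytosol. Iron that is not used is stored inside ferritin, a hollow shell of heavy (Fth1) and light (Ftl1) chains, from which Ncoa4 releases it by carrying ferritin to the lysosome, and ferroportin (Slc40a1) is the export channel of the cell surface. The regulatory proteins Aco1 (IRP1) and Ireb2 (IRP2) bind a short RNA hairpin, the iron-responsive element, when iron is scarce. In the 5′ untranslated region of an mRNA such an element lets them block translation, and in the 3′ untranslated region of Tfrc the elements let them protect the mRNA from decay. Hmox1 opens the haem ring and sets its iron free. Read counts measure mRNA only, so they hold nothing on translation, ferritin protein or the iron content of these cells.

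The elements are shown because they are a shared sequence by which iron acts on mRNAs, and the search below matched 4 of the 9. The search was strict, so a gene without a match may still carry an element. A search of the GENCODE M21 transcripts on GRCm38 for a bulged C, 5 stem bases and a 6-base loop beginning with CAGTG, with all 5 upper and at least 4 of 5 lower stem pairs, found a match in an untranslated region of 14 of 21877 protein-coding symbols, 0.064%, and Fth1, Ftl1, Slc40a1 and Tfrc were among them. The deposited counts used GRCm39, so these positions come from the annotation by symbol and not from the deposited table. Each site is 30 bases, written 5′ to 3′ on the mRNA strand as DNA letters, with the loop in capitals. The sites of Fth1 (chr19:9982731-9982760, plus strand), Ftl1 (chr7:45459779-45459808, minus strand) and Slc40a1 (chr1:45925465-45925494, minus strand) lie in the 5′ untranslated region. The 4 sites that the search found in Tfrc lie in its 3′ untranslated region, on the plus strand at chr16:32631218-32631247, chr16:32631597-32631626, chr16:32631662-32631691 and chr16:32631709-32631738. They are lettered a to d in that order and may not be all of its elements.
Fth1: tttcctgcttcaaCAGTGCttgaacggaac
Ftl1: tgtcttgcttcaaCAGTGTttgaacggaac
Slc40a1: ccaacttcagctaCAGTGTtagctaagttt
Tfrc a: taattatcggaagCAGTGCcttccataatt
Tfrc b: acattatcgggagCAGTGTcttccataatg
Tfrc c: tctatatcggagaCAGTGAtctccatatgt
Tfrc d: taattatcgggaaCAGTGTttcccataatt

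The libraries held 7476862, 6965653 and 5666168 counted reads with budesonide and 6407369, 7018327 and 6336709 reads untreated, so that 3 reads corresponded to 0.401 to 0.529 CPM (read counts scaled to library size). Levels below are CPM after trimmed mean of M-values (TMM) scaling, and fold changes are budesonide over untreated on the log2 scale from edgeR's quasi-likelihood fit, with its standard error (SE). The libraries separated by treatment on the first principal component, which held 52.1% of the variance. Malat1, a nuclear RNA, took 1.56% to 1.61% of the reads with budesonide and 0.994% to 1.03% untreated, and mitochondrial mRNAs took 1.05% to 1.22% with budesonide and 1.28% to 1.37% untreated. Among cell type markers, the summed level of 8 pluripotent stem cell markers was 1950 to 2160 CPM with budesonide and 1360 to 1420 CPM untreated, and 6 of the 8 rose. The summed level of 8 posterior streak markers was 9.86 to 15.1 CPM with budesonide and 267 to 289 CPM untreated, and all 6 that were tested fell. The 12 erythroid markers, which include 7 globin genes, summed to 5.35 to 6.25 CPM with budesonide and 5.81 to 8.84 CPM untreated, with no globin above 10 reads in a library. The 10 macrophage markers summed to 21.7 to 24.1 CPM with budesonide and 20.9 to 24.8 CPM untreated. The 14 visceral endoderm markers summed to 22.4 to 23.4 CPM with budesonide and 31.6 to 42.3 CPM untreated. Of the 7 tested, only Foxa2 fell (mean 0.81 CPM with budesonide and 11.2 CPM untreated), and 6 did not pass. The aggregates thus differed in their stem cell and streak markers while the iron genes were measured. The part of these shifts in the values below was not tested, and in bulk RNA fewer cells of a type and less RNA per cell cannot be told apart.

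With budesonide, 5 of the 9 genes passed an adjusted p of 0.05 as higher (Fth1, Ftl1, Hmox1, Ncoa4 and Ireb2), none passed as lower, and Tfrc, Slc40a1, Slc11a2 and Aco1 did not pass. The background was 28.7% of the 17155 genes tested: 15.2% were higher and 13.5% lower. DESeq2 called 4 of the 9 as higher, with a background of 21.2% (12.7% higher and 8.45% lower). The 9 genes were picked with this contrast known, so the count is a description and no p-value is given for any of them. In 6 of the 9, all 3 budesonide libraries lay above all 3 untreated ones, and in the other 3 the groups overlapped. Over all tested genes 19.8% had every budesonide library higher and 39.6% had groups that did not overlap in either direction. The median log2 fold change of the 9 genes was 0.34, and that of all tested genes was -0.02, with its middle 50% between -0.29 and 0.23.

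Fth1, the heavy chain that carries the ferroxidase activity of ferritin, was the most abundant of the 9 mRNAs. It stood at 679.5, 699.2 and 706.2 CPM with budesonide and at 452.7, 415.9 and 395.1 CPM untreated. The groups were well apart, and the budesonide libraries lay closer together than the untreated ones. The mean was 694.9 ± 13.8 CPM with budesonide and 421.3 ± 29.2 CPM untreated (SD, n = 3 each), a log2 fold change of 0.72 ± 0.06 (SE), or 1.65-fold. These values rested on 3841 to 4823 reads per budesonide library and 2515 to 2970 reads per untreated library. The gene lies on chromosome 19 of GRCm38 (9980598 to 9985098, plus strand), the build of all gene positions given here.

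Ftl1, the light chain, which has no ferroxidase centre and favours the growth of the iron core, moved by nearly the same factor. It stood at 170.8, 157.3 and 162.2 CPM with budesonide and at 95.3, 96.9 and 107.2 CPM untreated. Every budesonide library was above every untreated one. The mean was 163.4 ± 6.81 CPM with budesonide and 99.8 ± 6.44 CPM untreated, and the log2 fold change was 0.71 ± 0.07, or 1.64-fold. The gene lies on chromosome 7 (45457944 to 45459884, minus strand) and overlaps Gm10252 on the opposite strand, which averaged 1.90 ± 0.522 CPM with budesonide and 1.47 ± 0.674 CPM untreated. Within a library the ratio of Fth1 to Ftl1 reads was 3.98, 4.44 and 4.35 with budesonide and 4.75, 4.29 and 3.69 untreated. The ranges overlapped, with means of 4.26 ± 0.247 with budesonide and 4.24 ± 0.534 untreated.

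**Figure D1:**
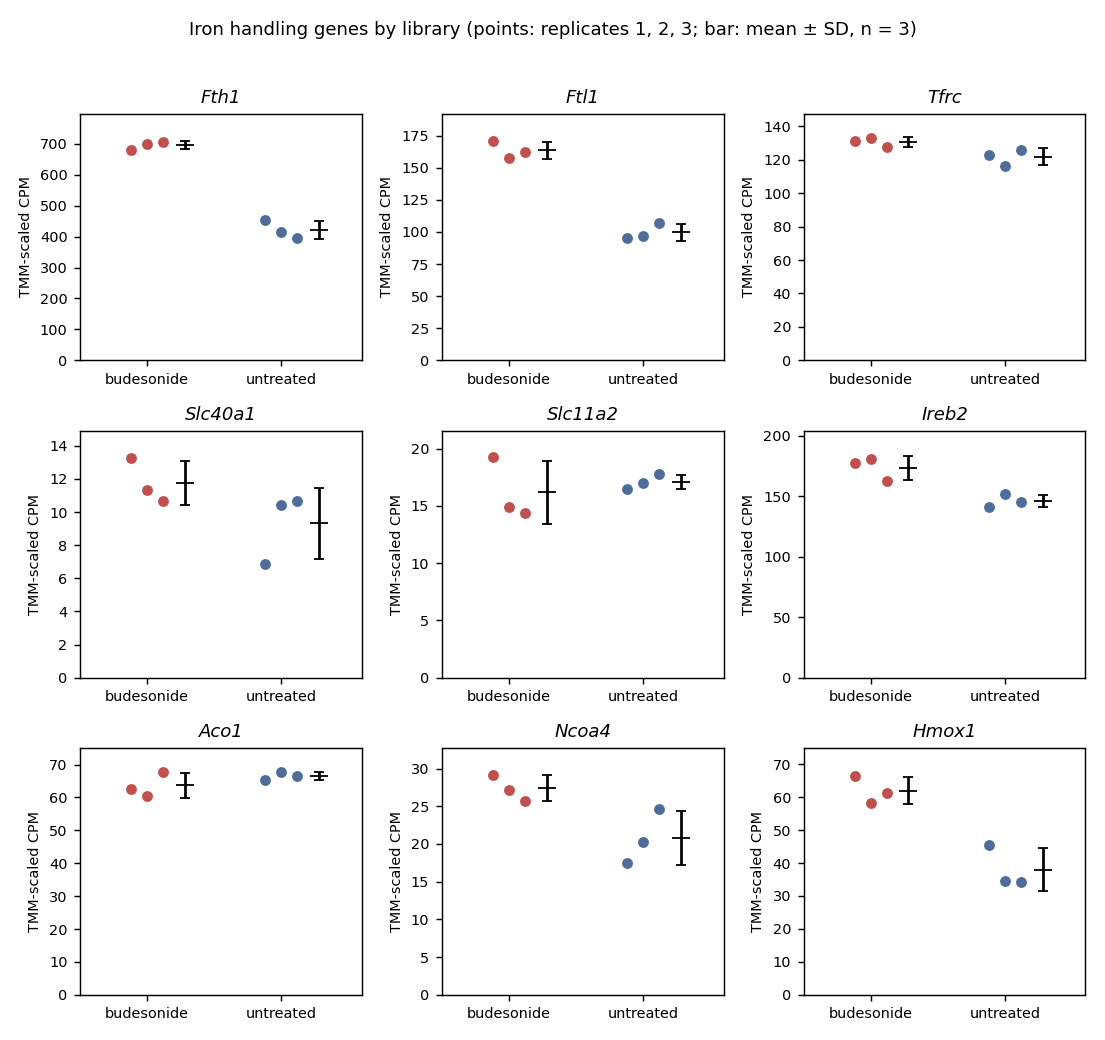
TMM-scaled CPM (y axis, from 0) of the 9 iron handling genes in the budesonide libraries (left of each panel) and the untreated libraries (right); points are replicates 1 to 3 in that order and bars are the mean ± SD (n = 3). Fth1, Ftl1 and Hmox1 show the widest gaps between the groups, while the points of Slc40a1, Slc11a2 and Aco1 overlap.

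The reads of Ftl1 cannot be told cleanly from those of its copies. Of its 50-base stretches, 90.6% occur in transcripts of other genes, against 4.01% for Fth1. Both strands were searched for such stretches, here and below, so antisense matches are included. How the authors' counting treated such reads is not given in the sources used here. The count table listed 15 other symbols that begin with Fth or Ftl, of which 3 had enough reads to be tested. Ftl2-ps, a processed pseudogene of Ftl1, held more reads than Ftl1 in 4 of the 6 libraries, the exceptions being the first and the third untreated. It stood at 187.1, 214.6 and 207.4 CPM with budesonide and at 93.6, 121.9 and 103.7 CPM untreated, a log2 fold change of 0.93 ± 0.07 or 1.90-fold. Ftl2-ps aligns to Ftl1 over 552 bases with 545 identical. Its 7 differences, counted from base 1 of the Ftl1 coding region with the Ftl1 base first, are A307C, T354C, G366C, A401T, T402C, G468A and G504A. The stretch of coding bases 348 to 407 is shown because it holds 4 of the 7, in capitals. A read that covers any of the 7 could tell Ftl1 from Ftl2-ps. So could a read from the part of the 968-base Ftl1 transcript outside the alignment. Of the 503 50-base stretches of Ftl2-ps, 273 also occur in Ftl1. Ftl1 is on chromosome 7 and Ftl2-ps on chromosome 4.
Ftl1: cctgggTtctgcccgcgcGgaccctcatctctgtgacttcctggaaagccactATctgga
Ftl2-ps: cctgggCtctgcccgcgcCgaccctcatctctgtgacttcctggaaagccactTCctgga

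Ftl2-ps lies inside Grik3, a glutamate receptor gene on the same strand, whose own counts moved the other way. Grik3 fell to 113.5 ± 7.07 CPM with budesonide, against 146.1 ± 6.51 CPM untreated (edgeR adjusted p = 1.74e-05). Ftl1-ps1, which carries the same 30-base element as Ftl1 (chr13:74406427-74406456, plus strand) and is 99.6% identical to it, was far less abundant. It averaged 5.94 ± 1.08 CPM with budesonide and 3.34 ± 0.13 CPM untreated, with a log2 fold change of 0.81 ± 0.25. Gm12164, which shares 50-base stretches with Ftl1-ps2, averaged 8.24 ± 1.65 CPM with budesonide and 4.24 ± 1.45 CPM untreated and was picked after its values were seen. Fth-ps2, a copy of Fth1 at only 80.5% identity, was at 1.3 ± 0.659 CPM with budesonide and 1.51 ± 0.232 CPM untreated, with overlapping groups.

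Adding the reads of Ftl1 and its 3 copies gives a level that does not depend on how the counted reads were split among them. It still depends on whether reads with several matches were counted at all. Ftl1 shares 50-base stretches with 17 other genes, and only these copies were added. The sum was 364.9, 377.8 and 377.4 CPM with budesonide and 192.5, 222.4 and 215.2 CPM untreated, and the groups were clearly apart. With the copies summed, a choice made after seeing the data, the log2 fold change of the light chain was 0.83. Ftl1 itself took 46.8%, 41.6% and 43.0% of the summed reads with budesonide and 49.5%, 43.6% and 49.8% untreated, so the shares overlapped. Fth1 reads over the summed light chain reads were 1.86, 1.85 and 1.87 with budesonide and 2.35, 1.87 and 1.84 untreated. Here the first untreated library stood apart from the other 5.

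**Figure D2:**
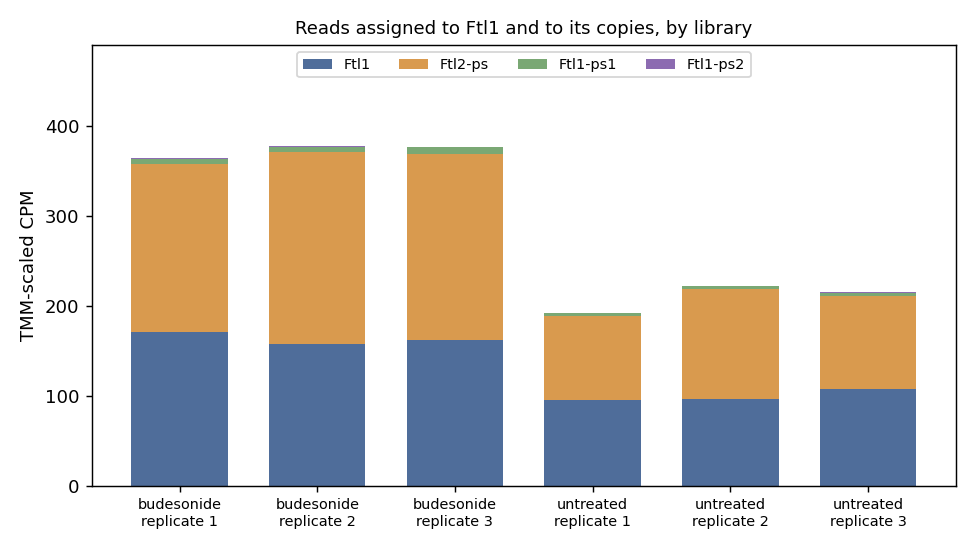
Stacked TMM-scaled CPM (y axis, from 0) assigned to Ftl1, Ftl2-ps, Ftl1-ps1 and Ftl1-ps2 in each of the 6 libraries, budesonide on the left. Nearly all reads fall on Ftl1 and Ftl2-ps, and the summed height is 364.9 to 377.8 CPM with budesonide and 192.5 to 222.4 CPM untreated.

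Tfrc, the receptor that brings in transferrin-bound iron, differed little between the groups. It stood at 130.9, 133.0 and 127.6 CPM with budesonide and at 122.9, 116.4 and 126.0 CPM untreated. The lowest budesonide library was only just above the highest untreated one. The mean was 130.5 ± 2.74 CPM with budesonide and 121.8 ± 4.89 CPM untreated, a log2 fold change of 0.10 ± 0.06, which did not pass. With library totals in place of TMM scaling it was 0.02, so its size rests on the scaling. The gene is on chromosome 16 (32608920 to 32632794, plus strand).

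Relative to Tfrc, both ferritin mRNAs stood higher with budesonide in every library, a comparison picked after the values were seen and free of the scaling between libraries. Fth1 reads over Tfrc reads were 5.19, 5.26 and 5.53 with budesonide and 3.68, 3.57 and 3.14 untreated. Ftl1 over Tfrc was 1.3, 1.18 and 1.27 with budesonide and 0.775, 0.832 and 0.85 untreated. The ferritin mRNAs therefore stood in a different proportion to Tfrc in the treated libraries, whichever scaling was used. This holds for Tfrc alone. Other uptake genes, described below, moved in both directions, and their ratios to the ferritins were not tested.

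Slc11a2, the divalent metal transporter of the endosome and the gut surface, stood at 19.3, 14.9 and 14.3 CPM with budesonide and at 16.5, 17 and 17.8 CPM untreated. One budesonide library was above all untreated ones and the other two were below them. The mean was 16.2 ± 2.73 CPM with budesonide and 17.1 ± 0.648 CPM untreated, a log2 fold change of -0.07 ± 0.14. Its sign rested on single libraries: without budesonide replicate 2 or 3 it was 0.01, and without budesonide replicate 1 it was -0.22. The gene lies on chromosome 15 (100387898 to 100425072, minus strand) and overlaps Gm5475 on the opposite strand, which had 5 to 13 reads per library. No match to the element letters searched was found in its annotated untranslated regions. The search can miss elements, so this does not show that Slc11a2 carries none.

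Slc40a1, ferroportin, the iron exporter and the target of hepcidin, was the least abundant of the 9 and lies on chromosome 1 (45908068 to 45926523, minus strand). It stood at 13.2, 11.3 and 10.7 CPM with budesonide, from 58 to 94 reads, and at 6.86, 10.4 and 10.7 CPM untreated, from 45 to 74 reads. Only the first untreated library was clearly lower, and the third budesonide library and the third untreated one had nearly the same level. The mean was 11.8 ± 1.34 CPM with budesonide and 9.32 ± 2.13 CPM untreated, a log2 fold change of 0.34 ± 0.17 that did not pass. Without untreated replicate 1 it was 0.17. Counting error alone was 10.3% to 14.9% of its value in a library, so a difference of this size could be missed at this depth.

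The 2 regulatory proteins did not move alike. Ireb2, the one that is removed by the proteasome when iron is plentiful, stood at 177.2, 181.0 and 162.2 CPM with budesonide and at 141.5, 151.6 and 145.0 CPM untreated. Every budesonide library was above every untreated one. Ireb2 averaged 173.5 ± 9.98 CPM with budesonide and 146.0 ± 5.13 CPM untreated, a log2 fold change of 0.25 ± 0.06, or 1.19-fold. Ireb2 is on chromosome 9 (54863789 to 54912530, plus strand).

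Aco1, which is a cytosolic aconitase when it holds an iron-sulfur cluster and binds RNA when it has lost it, stood at 62.7, 60.5 and 67.8 CPM with budesonide and at 65.2, 67.6 and 66.5 CPM untreated. The untreated values lay inside the budesonide range. Aco1 averaged 63.7 ± 3.77 CPM with budesonide and 66.4 ± 1.19 CPM untreated, a log2 fold change of -0.07 ± 0.08. Aco1 is on chromosome 4 (40143081 to 40198338, plus strand). Ireb2 reads over Aco1 reads were 2.83, 2.99 and 2.39 with budesonide and 2.17, 2.24 and 2.18 untreated. The untreated ratios were tight, and the 3 budesonide ratios were all above them.

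Ncoa4, the cargo receptor that delivers ferritin to the lysosome, stood at 29.2, 27.2 and 25.7 CPM with budesonide and at 17.5, 20.3 and 24.7 CPM untreated. The groups did not overlap, but the lowest budesonide library and the highest untreated one were close. Ncoa4 averaged 27.4 ± 1.72 CPM with budesonide and 20.8 ± 3.60 CPM untreated, a log2 fold change of 0.40 ± 0.12, or 1.32-fold. The gene lies on chromosome 14 (32159865 to 32179855, plus strand). Its place among the genes called was lost with DESeq2, without untreated replicate 1 (0.31) and without budesonide replicate 1 (0.36). Of its 50-base stretches, 43.1% also occur in the transcript of Gm6768, a symbol not used here, so its reads are less certain than those of the 7 genes other than Ftl1, which share 0% to 4.01%.

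Hmox1, the inducible haem oxygenase, stood at 66.4, 58.3 and 61.2 CPM with budesonide and at 45.4, 34.5 and 34.1 CPM untreated. The groups were apart, and the first untreated library was higher than the other two. Hmox1 averaged 62.0 ± 4.09 CPM with budesonide and 38.0 ± 6.44 CPM untreated, a log2 fold change of 0.71 ± 0.09, or 1.63-fold. The gene lies on chromosome 8 (75093621 to 75100589, plus strand). Without untreated replicate 1 it was 0.86. Hmox2, the isoenzyme that is made constitutively, averaged 23.8 ± 3.03 CPM with budesonide and 23.3 ± 4.11 CPM untreated, a log2 fold change of 0.02 ± 0.13 (edgeR adjusted p = 0.939). Hmox1 reads over Hmox2 reads were 3.25, 2.36 and 2.33 with budesonide and 2.42, 1.29 and 1.39 untreated, a ratio picked after the values were seen. Its groups overlapped, since the first untreated library stood above the second and the third budesonide ones.

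**Figure D3:**
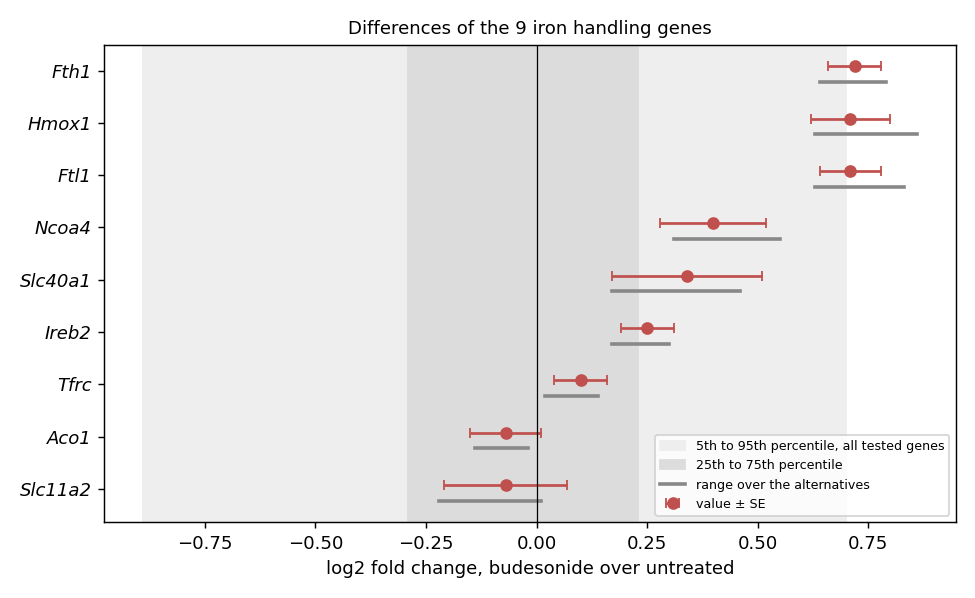
Log2 fold change (x axis, budesonide over untreated) of the 9 iron handling genes, sorted by size: points with bars are the value ± SE, grey lines are the range over the alternative settings, and shaded bands are the 5th to 95th and 25th to 75th percentiles of all tested genes. Fth1, Hmox1 and Ftl1 sit at 0.71 to 0.72, beside the 95th percentile of 0.70, and Aco1 and Slc11a2 sit at -0.07.

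Divided by transcript length, so that genes can be compared, the levels spanned a wide range. With budesonide Fth1 stood at 771 ± 15.3 CPM per kb, Ftl1 at 215 ± 8.97 and Tfrc at 72.9 ± 1.53, each apart from the next beyond the spread of its libraries. Hmox1 (52.9 ± 3.49 CPM per kb), Ireb2 (50.1 ± 2.88) and Aco1 (45.5 ± 2.7) followed, and neighbours among them overlapped. Ncoa4 (16.9 ± 1.06), Slc11a2 (12 ± 2.03) and Slc40a1 (7.77 ± 0.886) were lowest and did not overlap.

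In the untreated libraries the order began the same way, with Fth1 at 467 ± 32.4 CPM per kb, Ftl1 at 131 ± 8.49 and Tfrc at 68.0 ± 2.73. Aco1 (47.5 ± 0.854) then stood above Ireb2 (42.2 ± 1.48) and Hmox1 (32.4 ± 5.50), without overlap. Ncoa4 (12.9 ± 2.23) and Slc11a2 (12.7 ± 0.482) were not separated, and Slc40a1 (6.17 ± 1.41) was again lowest. Hmox1 thus ranked 4 of the 9 with budesonide and 6 untreated. These lengths are means over the annotated transcripts, and with the longest transcript the order of Tfrc, Hmox1 and Ireb2 changed. Hmox1 led them with budesonide at 39.5 CPM per kb and had the lowest mean of them untreated at 24.2. The untreated libraries overlapped, at 21.7 to 29.0 CPM per kb for Hmox1, 23.8 to 25.8 for Tfrc and 24.5 to 26.3 for Ireb2.

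**Figure D4:**
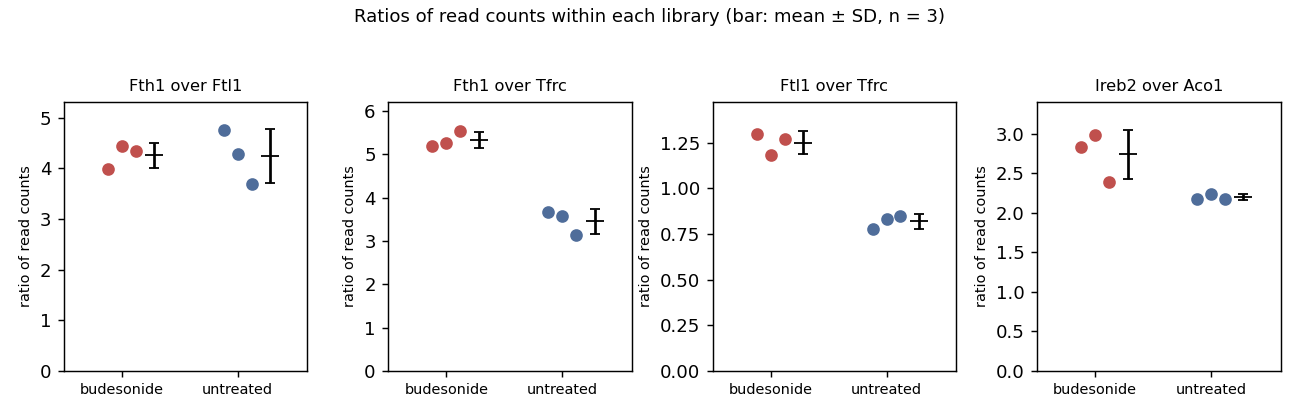
Ratios of read counts within each library (y axes, from 0), budesonide left of untreated; points are replicates 1 to 3 and bars are the mean ± SD (n = 3). Fth1 over Ftl1 overlaps between the groups, with means of 4.26 with budesonide and 4.24 untreated, while Fth1 over Tfrc, Ftl1 over Tfrc and Ireb2 over Aco1 lie higher in every budesonide library.

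The 9 genes also differed in how evenly their replicates were measured. The SD over the mean was 1.99% for Fth1 and 2.10% for Tfrc among the budesonide libraries, and 16.9% for Slc11a2. Among the untreated libraries it was 1.79% for Aco1, 17% for Hmox1, 17.3% for Ncoa4 and 22.9% for Slc40a1. The most uneven genes were thus among those with the fewest reads, except Hmox1, whose first untreated library held 298 reads against 245 and 217 in the other two.

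Likeness to other genes was described by Pearson's r of log2 CPM over the same 6 libraries, among the 11083 tested genes that averaged 5 CPM or more. Because the libraries fall into 2 groups, any gene that follows the treatment scores high, and r carries no p. Nearest to Fth1 were Sh3tc1 (0.999), Mymx (0.998) and Creb3 (0.998), and 760 genes exceeded 0.95. Nearest to Ftl1 were Anxa6 (0.999), Zeb1 (0.998) and Fgf4 (0.998), with 957 genes above 0.95. For Hmox1 they were Brms1l (0.998), Fermt2 (0.995) and Ppp6c (0.995), and 315 genes exceeded 0.95.

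The genes with smaller differences had fewer close neighbours. Ireb2 had 189 genes above 0.95, led by Rb1 (0.998), Nipsnap2 (0.998) and Atad5 (0.995), and Ncoa4 had 116, led by Setdb1 (0.997), Cab39 (0.991) and Slc25a3 (0.991). Tfrc had 52, led by Myom1 (0.994), Syde1 (0.990) and Vmac (0.988). Slc40a1 had 44, led by Itgb3bp (0.993), Rps10-ps2 (0.991) and Cars2 (0.991). Aco1 had 26, among them Gas2l1 (0.986) and Ubox5 (0.983), and Slc11a2 had 10, led by Adpgk (0.991), Lrr1 (0.971) and 1810030O07Rik (0.966).

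Promoter windows of 250 bases before the start were given by RefSeq (GRCm38) for 6 of the 9 genes, 10 windows in all. Hmox1, Slc40a1 and Slc11a2 had no window, so their promoters were not searched. The antioxidant response element, searched as TGACNNNGC on both strands, occurred in 1 of them, a window of Ncoa4, against 10.2% of 32851 mouse windows. A match is only a run of letters, and these windows do not reach distal elements.

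Around the 9 genes, 10 lists of other genes of iron, haem and metal handling held 127 tested genes. Of these 33 rose (26.0%, against 15.2% of all tested genes) and 14 fell (11.0%, against 13.5%), and their median log2 fold change was 0.14. Among 14 genes of iron uptake and reduction, 4 rose and 2 fell. Transferrin itself, Trf, which carries iron in plasma, rose to 9.75 ± 0.805 CPM with budesonide, against 4.06 ± 0.676 CPM untreated (log2 fold change 1.26 ± 0.21, adjusted p = 6.1e-06). Slc39a14, a zinc transporter that also imports free iron, stood at 78.5 ± 5.11 CPM with budesonide and 42.5 ± 3.01 CPM untreated (0.89 ± 0.08, adjusted p = 2.36e-12). Lrp2 (megalin), an endocytic receptor, rose by 0.71 ± 0.06 (adjusted p = 5.38e-13). Steap3, the endosomal reductase that works beside Tfrc and Slc11a2, fell to 3.80 ± 0.381 CPM, against 7.53 ± 1.52 CPM untreated (-0.98 ± 0.23, adjusted p = 0.000927), and Lrp1, a scavenger receptor, had -0.32 ± 0.06 (adjusted p = 0.00011).

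Of 9 tested genes for storage, iron chaperones and ferritin breakdown, 3 rose and 1 fell. Herc2, a ubiquitin ligase that acts on Ncoa4, rose by 0.29 ± 0.06 (adjusted p = 6.3e-05), and the autophagy receptor Tax1bp1 by 0.32 ± 0.06 (adjusted p = 3.73e-05). Pcbp3, of the family of iron chaperones, was called lower (-0.33 ± 0.13, adjusted p = 0.047), a call lost in 9 of 16 alternatives, among them those without untreated replicate 2 (-0.22) or 3 (-0.32) and without budesonide replicate 2 (-0.20). The 16 include a stricter adjusted p of 0.01, which any call between 0.01 and 0.05 fails by construction. Mitochondrial ferritin, Ftmt, had too few reads to test. Of 7 tested genes for export and hepcidin control, Neo1 rose (0.46 ± 0.08, adjusted p = 3.88e-06) and Erfe fell (-1.15 ± 0.35, adjusted p = 0.00956). Erfe, the hormone by which erythroid precursors lower hepcidin, stood at only 1.6 ± 0.526 CPM with budesonide and 3.50 ± 0.285 CPM untreated. It was not called with DESeq2 or without budesonide replicate 1 (-1.01). Hamp, which encodes hepcidin, did not reach the count filter.

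Among 9 tested genes for the turnover of the regulatory proteins and for other mRNAs known to carry an element, 4 rose and 2 fell. Epas1, the hypoxia factor HIF-2α, had the widest difference of the 127 tested list genes, at 125.7 ± 13.8 CPM with budesonide and 25.4 ± 1.57 CPM untreated (2.30 ± 0.09, adjusted p = 2.49e-25). Fbxl5, the iron-sensing receptor that marks Ireb2 protein for breakdown, rose to 58.7 ± 3.70 CPM, against 46.7 ± 0.662 CPM untreated (0.34 ± 0.08, adjusted p = 0.00132). Its mRNA and that of Ireb2 were therefore both higher. Cul1, the scaffold of the same ligase, had -0.21 ± 0.07 (adjusted p = 0.0118), and Rbck1, another ligase, -0.27 ± 0.07 (adjusted p = 0.00447); both calls were lost with DESeq2. Cul1 also lost its call without untreated replicate 3 (-0.17) or budesonide replicate 3 (-0.17), and Rbck1 without budesonide replicate 2 (-0.19).

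Of 12 genes of haem breakdown and transport other than Hmox1, 5 rose and none fell, and without budesonide replicate 1 the number that rose was 3. Pgrmc1, a haem-binding membrane protein, stood at 123.2 ± 7.26 CPM with budesonide and 60.6 ± 2.94 CPM untreated (1.03 ± 0.07, adjusted p = 3.48e-16). Blvrb, a biliverdin reductase, rose by 0.70 ± 0.13 (adjusted p = 3.38e-05). Of 12 haem synthesis genes, 1 rose and 1 fell, and neither call held with DESeq2. These were Alas1, the first enzyme of the path (0.34 ± 0.12, adjusted p = 0.0239), whose call was lost in 8 of 16 alternatives, and Alad, the next enzyme (-0.47 ± 0.13, adjusted p = 0.00485). The call of Alas1 was lost without untreated replicate 2 (0.36) or 3 (0.29) and without budesonide replicate 3 (0.27). Of 21 genes for mitochondrial iron import and iron-sulfur cluster assembly, 1 rose and 3 fell. Glrx5, which hands on new clusters, stood at 15.7 ± 2.56 CPM with budesonide and 27.3 ± 2.90 CPM untreated (-0.80 ± 0.13, adjusted p = 2.33e-06), and Bola3, a later assembly factor, had -0.45 ± 0.11 (adjusted p = 0.000896). Hscb, a co-chaperone of the early step, was called higher (0.51 ± 0.20, adjusted p = 0.0497), which was lost in 12 of 16 alternatives, among them those without untreated replicate 1 (0.40) or 3 (0.53) and without budesonide replicate 2 (0.46) or 3 (0.46). For Alas1 and Hscb too, the 16 include the adjusted p of 0.01, which neither could pass. Of 10 genes for cytosolic assembly, none passed with edgeR or DESeq2, 1 had an unadjusted p under 0.05, and 1 passed without untreated replicate 2.

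The NRF2 and BACH1 list covers the activator and the repressor known to act on Fth1, Ftl1 and Hmox1, with other target genes. Of its 20 genes, 10 rose and 2 fell. Nqo1, a quinone reductase, stood at 47.8 ± 3.88 CPM with budesonide and 12.7 ± 2.49 CPM untreated (1.90 ± 0.12, adjusted p = 1.11e-17), and Gclm, a subunit of the enzyme of glutathione synthesis, at 120.8 ± 8.68 CPM with budesonide and 84.3 ± 1.58 CPM untreated (0.52 ± 0.07, adjusted p = 3.96e-08). The activator Nfe2l2 (NRF2) rose by 0.53 ± 0.09 (adjusted p = 3.62e-06) and the haem-sensing repressor Bach1 by 0.38 ± 0.07 (adjusted p = 1.41e-05). Bach2, a related repressor, had -0.61 ± 0.14 (adjusted p = 0.000472), and Abcc1, an efflux pump, -0.31 ± 0.08 (adjusted p = 0.00133). Of 13 tested metallothioneins and genes for zinc or copper handling, 4 rose and 2 fell. Mt1 and Mt2, the metal-binding metallothioneins, rose by 0.92 ± 0.07 (adjusted p = 1.57e-15) and 0.85 ± 0.08 (adjusted p = 7.22e-12). The zinc importer Slc39a6 (-0.48 ± 0.14, adjusted p = 0.00533) and the copper pump Atp7b (-0.70 ± 0.21, adjusted p = 0.0077) fell. Neither call held with DESeq2. Slc39a6 also lost its call without untreated replicate 1 (-0.38) and Atp7b without budesonide replicate 1 (-0.56), and in either case 1 gene of the list was left as lower.

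**Figure D5:**
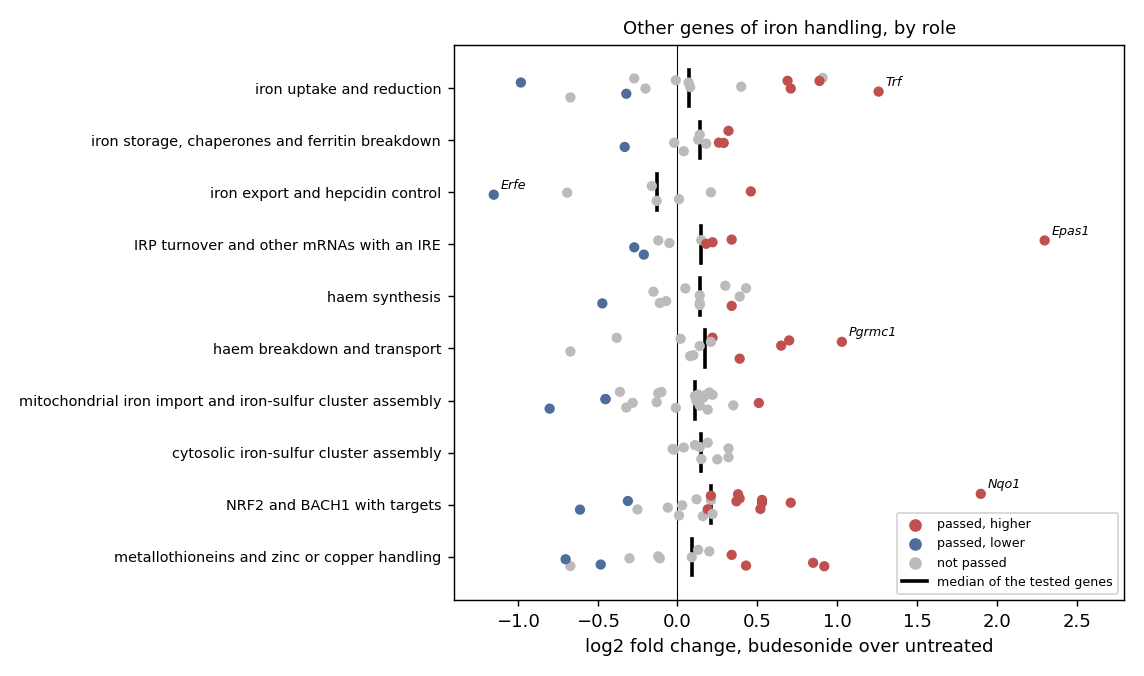
Log2 fold change (x axis, budesonide over untreated) of the 127 tested genes in 10 lists of iron, haem and metal handling, none of them among the 9 genes: red points passed as higher, blue as lower, grey did not pass, and black bars are list medians, which lie between -0.13 and 0.21. Vertical scatter within a list only separates the points, and called genes beyond 1 on the log2 scale are named.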

How the data were processed

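Per the labels' protocols, stranded mRNA libraries were made from the 3 budesonide and 3 untreated samples. Tools named in the submitters' processing notes are STAR 2.7.5c, featureCounts 2.0, cutadapt 2.5, DESeq2 and bcl2fastq, with GRCm39 as the build. The annotation, the strand setting and the handling of reads with several matches are not given in the sources used, so reads of overlapping and antisense genes cannot be told apart. The authors deposited raw counts per symbol (53819) and a normalized signal for 33560 symbols. That deposited signal equals the count over 1 factor per library, to within 0.0645 reads, and was used only as an alternative. The deposited counts were tested with edgeR 4.0.16 (R 4.3.3): filterByExpr (minimum count 10, total 15), TMM, robust quasi-likelihood fit, Benjamini-Hochberg at 0.05 over 17155 genes. SE is the log2 fold change over the square root of its F statistic. The fit was tested on simulated data. Levels per kb used GENCODE M21 lengths. Named were all 9 genes, tested Fth and Ftl symbols, up to 2 genes per list and direction with the smallest adjusted p and at least 1 CPM, and fixed anchors (Trf, Fbxl5, Hmox2, Bach1, Nfe2l2, Epas1, Mt1), with the 3 genes of highest r for each of the 9 (likeness); Gm12164 and Grik3 were added after their values were seen. The 9 genes and the lists were chosen with earlier results of these data known. Alternatives were DESeq2 1.42.0, limma 3.58.1, other scalings and filters, a replicate block, a GC and length offset, copies summed and each library left out. For named genes outside the 9, a stricter adjusted p of 0.01 took the place of the copies summed. Promoter windows were matched on symbol. One gene that the likeness rule named is not reported here.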

Additional observations from a re-analysis of the deposited data

How the results depend on the processing

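Over 16 alternatives for each of the 9 genes, 137 of 144 log2 fold changes moved by less than 1 SD between replicates. The 7 that did not were Fth1, Ftl1, Tfrc, Ireb2 and Aco1 with library totals (0.64, 0.63, 0.02, 0.17 and -0.14), Tfrc with upper quartile scaling (0.05) and Ftl1 with its copies summed (0.83). The count of the 9 called was 4 to 5, with or without any 1 library. Genes called over the whole table numbered 4917, against 3293 with DESeq2 and 4044 to 4614 with 1 library left out. Genes called lower fell to 1313 with DESeq2, and list genes called lower to 6. Of the genes called, 2601 were higher and 2316 lower, and with library totals 2003 and 3186. List genes called numbered 47, and 36 to 47 over the alternatives. Hmox2 changed sign to -0.03 with upper quartile scaling, -0.06 with library totals, -0.01 with no filter on low counts, -0.01 with the GC and length offset, and -0.11 to 0.14 with 1 library left out; the cause was not tested. For 37 other named genes, 540 of 592 values kept their direction and their side of the threshold. With the longest transcript as length, levels per kb with budesonide, and untreated after each, were 337 and 204 for Fth1, 169 and 103 for Ftl1, 39.5 and 24.2 for Hmox1, 30.1 and 25.3 for Ireb2, 26.7 and 24.9 for Tfrc, 16.6 and 17.3 for Aco1, 5.78 and 4.40 for Ncoa4, 3.66 and 3.87 for Slc11a2, and 2.99 and 2.37 for Slc40a1. The ratios per kb were then 2 and 1.99 for Fth1 over Ftl1, against 3.59 and 3.57 by mean length, and 1.82 and 1.46 for Ireb2 over Aco1, against 1.11 and 0.887. A longer divisor lowers a level by construction. No pairing by the replicate numbers in the titles was seen: deviations of same-numbered samples correlated at 0.04, 0.059 and -0.018. With 3 libraries per group a weak pairing could be missed. With the replicate block 4986 genes, 47 list genes and the same count of 5 of the 9 were called. Depth limits Slc40a1, Slc11a2 and Ncoa4, whose libraries held 45 to 207 reads.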
